A study of Mus musculus with 6 samples.

Results

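The genes described here are transcripts of the red blood cell lineage: the adult beta globin genes Hbb-bs and Hbb-bt, the adult alpha globin genes Hba-a1 and Hba-a2, and Alas2, Klf1, Slc4a1 and Car2. They were taken by gene name from the FPKM files (sequenced fragments scaled to transcript length and to library size) of 6 libraries. Of 9 genes on the list, 8 were found among 39171 gene identifiers, and 1 is not analysed here. The libraries were made from splenic CD4+ T cells of C57BL/6 mice of premenopausal age, 1 library per mouse. In the AngII group, 3 mice received angiotensin II, a peptide hormone that raises blood pressure, by osmotic minipump at 800 ng/kg/min for 14 days from 10 weeks of age. In the Control group, 3 mice of the same strain and starting age were untreated. Cells were taken from spleen suspensions with a CD4+ T cell isolation kit, and the labels name no sort after it. The comparison asks whether the level of red cell transcripts in these T cell libraries differed between the groups.

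In red cell precursors, KLF1 is a transcription factor that switches on the adult beta globin genes and many other erythroid genes. ALAS2 catalyses the first step of heme synthesis in these cells, and heme is built into hemoglobin, a tetramer of alpha and beta globin chains. SLC4A1, or band 3, exchanges chloride for bicarbonate across the red cell membrane and anchors the membrane skeleton, while carbonic anhydrase 2, the product of Car2, interconverts carbon dioxide and bicarbonate. The mouse spleen is a site of red cell production in adult life as well as of red cell removal. Reticulocytes, the youngest circulating red cells, have lost their nucleus but still carry globin mRNA.

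On GRCm38, in GENCODE M21 coordinates, the beta globin genes lie on the minus strand of chromosome 7, Hbb-bs (ENSMUSG00000052305) at chr7:103826534-103828096 and Hbb-bt (ENSMUSG00000073940) at chr7:103812524-103813996. The alpha globin genes lie on the plus strand of chromosome 11, Hba-a1 (ENSMUSG00000069919) at chr11:32283511-32284465 and Hba-a2 (ENSMUSG00000069917) at chr11:32296489-32297298. The others are Alas2 (ENSMUSG00000025270, chrX:150547375-150570638, plus strand), Klf1 (ENSMUSG00000054191, chr8:84901928-84905291, plus strand), Slc4a1 (ENSMUSG00000006574, chr11:102348824-102366203, minus strand) and Car2 (ENSMUSG00000027562, chr3:14886273-14900770, plus strand).

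The adult globin genes come in near-identical pairs, which bears on how reads are divided between them. In GENCODE M21 transcripts (GRCm38), the coding sequences of Hbb-bs and Hbb-bt are 444 bases long and differ at 1 base, coding position 417 counted from the A of the start codon. Those of Hba-a1 and Hba-a2 are 429 bases long and differ at 1 base, coding position 381. The stretches around these positions lie in exon 3, at chr7:103826672-103826712 (Hbb-bs, minus strand), chr7:103812663-103812703 (Hbb-bt, minus strand), chr11:32284323-32284363 (Hba-a1, plus strand) and chr11:32297140-32297180 (Hba-a2, plus strand). They are shown because the capital letter marks the one coding base by which each pair can be told apart:
Hbb-bs: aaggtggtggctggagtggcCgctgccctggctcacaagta
Hbb-bt: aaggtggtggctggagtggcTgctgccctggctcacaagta
Hba-a1: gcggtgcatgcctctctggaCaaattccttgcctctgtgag
Hba-a2: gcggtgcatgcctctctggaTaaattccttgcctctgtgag
Of all stretches of 50 bases in the Hbb-bs transcript, 65.8% also occur in Hbb-bt, and 58.3% of those in Hbb-bt occur in Hbb-bs. The shares are 67.5% for Hba-a1 in Hba-a2 and 86.9% for Hba-a2 in Hba-a1. How the authors' counting divided shared reads is not given in the sources used here, so the level of each single globin gene is uncertain. Since FPKM is scaled to transcript length, and the transcripts are 628 (Hbb-bs), 703 (Hbb-bt), 699 (Hba-a1) and 554 (Hba-a2) bases long, the summed FPKM of a pair also depends on how reads were divided.

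Upstream sequence was looked at for 3 members that stand for different roles, a globin chain, the heme enzyme and the transcription factor. RefSeq promoters (GRCm38.p6) matched 6 of the 8 genes by symbol. Windows of 150 bases were read upstream of the RefSeq start, or of the GENCODE start of the transcript used where that lies further upstream. The window ends directly before the RefSeq start for Hbb-bs, inside the wider GENCODE gene span given above, and 42 and 54 bases before it for Alas2 and Klf1. The windows are at chr7:103827929-103828078 (Hbb-bs, minus strand), chrX:150547225-150547374 (Alas2, plus strand) and chr8:84901778-84901927 (Klf1, plus strand). Capitals mark CACCC (the core of sites bound by KLF1), GATAA (a core of sites bound by GATA factors, read as TTATC where it lies on the opposite strand), the CCAAT box motif CCAAT and the TATA box motif TATAA, searched on both strands:
Hbb-bs: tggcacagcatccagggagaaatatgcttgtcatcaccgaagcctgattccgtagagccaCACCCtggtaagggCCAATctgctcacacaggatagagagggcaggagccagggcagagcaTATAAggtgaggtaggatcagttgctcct
Alas2: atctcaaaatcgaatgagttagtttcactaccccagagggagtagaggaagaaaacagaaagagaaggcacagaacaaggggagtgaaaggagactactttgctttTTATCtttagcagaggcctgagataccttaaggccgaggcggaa
Klf1: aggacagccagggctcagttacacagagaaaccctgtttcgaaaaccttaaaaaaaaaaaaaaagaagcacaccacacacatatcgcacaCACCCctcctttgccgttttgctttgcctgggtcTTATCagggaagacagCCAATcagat
Hbb-bs held 1 match to each motif other than the GATA core, Klf1 held 1 to each other than the TATA box, and Alas2 held 1 to the GATA core alone. No matches overlapped. Among 32851 RefSeq promoter windows of 150 bases, 37.4% held the KLF1 core, 13.4% the GATA core, 24.5% the CCAAT box and 14.2% the TATA box, and a match describes the letters only, not a bound site.

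The libraries carried T cell transcripts at high levels, with Cd4 between 203 and 254 FPKM and Cd3e between 434 and 536 FPKM. Summed FPKM lay between 613674 and 717286 per library, 11438 to 11757 genes reached 1 FPKM, and no library duplicated another. The number of reads behind a value is unknown, since FPKM does not keep it. In such bulk samples, fewer red cells and less RNA per red cell cannot be told apart.

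Hemoglobin transcripts were measured in every library, and their levels overlapped between the groups. Hbb-bs, the more abundant adult beta globin gene, had 164, 268 and 305 FPKM in replicates 1, 2 and 3 of the Control group. It had 85.9, 220 and 374.5 FPKM in those of the AngII group. Values of other genes are given in the same order. The lowest and the highest library were thus both in the AngII group, 4.36-fold apart, and the groups overlapped. The group means, with SD over 3 mice, were 245 ± 72.7 FPKM for Control and 227 ± 144 FPKM for AngII.

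The alpha globin genes had the same lowest and highest library. Hba-a1 was at 85.8, 145 and 100 FPKM in Control and at 44.8, 139 and 228 FPKM in AngII. Hba-a2 was at 60.3, 98.8 and 68.5 FPKM in Control and at 24.0, 75.5 and 159 FPKM in AngII. For both, AngII replicate 1 was lowest and AngII replicate 3 highest, 5.09-fold apart for Hba-a1 and 6.63-fold for Hba-a2. Summed over the pair, alpha globin was at 146, 244 and 169 FPKM in Control and 68.8, 214 and 387 FPKM in AngII.

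**Figure D1:**
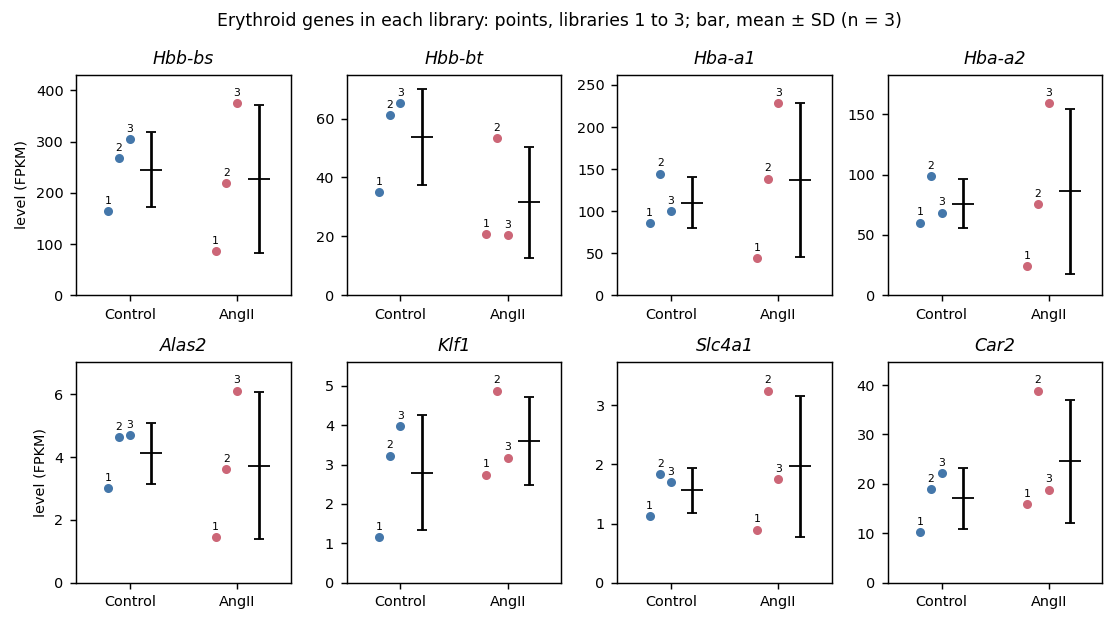
Level in FPKM (vertical axis, from 0) of the 8 erythroid genes in the 3 Control and 3 AngII libraries; points are libraries numbered by replicate, and the bars beside them give mean ± SD (n = 3). AngII replicate 1 is the lowest library for Hbb-bs, Hba-a1, Hba-a2, Alas2 and Slc4a1, and the groups overlap in every panel.

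Hbb-bt, the less abundant adult beta globin gene, kept a steady share of beta globin in 5 libraries and departed from it in 1. It was at 35.0, 61.0 and 65.1 FPKM in Control and at 20.8, 53.4 and 20.4 FPKM in AngII. Its share of adult beta globin was 17.6%, 18.6% and 17.6% in Control and 19.5%, 19.5% and 5.17% in AngII. In AngII replicate 3, the library with the highest Hbb-bs, Hbb-bt was at its lowest level, whereas the summed FPKM of both beta genes was highest there (395 FPKM, against 107 and 273 in AngII replicates 1 and 2 and 199, 329 and 370 in Control). Mean shares were 17.9 ± 0.564% in Control and 14.7 ± 8.28% in AngII (SD, n = 3; exact permutation test, two-sided, p = 1). Without AngII replicate 3 the difference turned to 1.58 percentage points higher in AngII. The part that shared coding sequence had in the value of AngII replicate 3 was not tested.

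Alpha and beta chains were not in a fixed proportion. The ratio of summed alpha to summed beta FPKM was 0.733, 0.741 and 0.456 in Control and 0.645, 0.784 and 0.980 in AngII. Control replicate 3 had the lowest ratio and AngII replicate 3 the highest, 2.15-fold apart, although their beta sums were close (370 and 395 FPKM). The mean log2 ratio was 0.33 higher in AngII, and the groups overlapped. An exact permutation test (two-sided) gave p = 0.4, with an adjusted p of 0.8 over the 2 ratios tested. With 3 mice against 3, p in this test cannot go below 0.1. Within the alpha pair, Hba-a2 made up 41.3%, 40.6% and 40.6% in Control and 34.9%, 35.2% and 41.1% in AngII. This share rests on how near-identical reads were divided, and it was not tested between the groups.

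Alas2, which starts heme synthesis, kept a nearly constant ratio to Hbb-bs. Its level was 3.00, 4.65 and 4.72 FPKM in Control and 1.45, 3.63 and 6.12 FPKM in AngII, a 4.21-fold range with AngII replicate 1 lowest and AngII replicate 3 highest. Per 100 FPKM of Hbb-bs there were 1.83, 1.74 and 1.55 FPKM of Alas2 in Control and 1.69, 1.65 and 1.63 in AngII, a 1.18-fold range. Across the 6 libraries, Pearson's r of log2(FPKM + 1) was 0.996 between Alas2 and Hbb-bs, 0.925 and 0.958 between Alas2 and Hba-a1 and Hba-a2, and 0.343 between Alas2 and Hbb-bt. These are descriptions over 6 points that share their library, without a test.

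**Figure D2:**
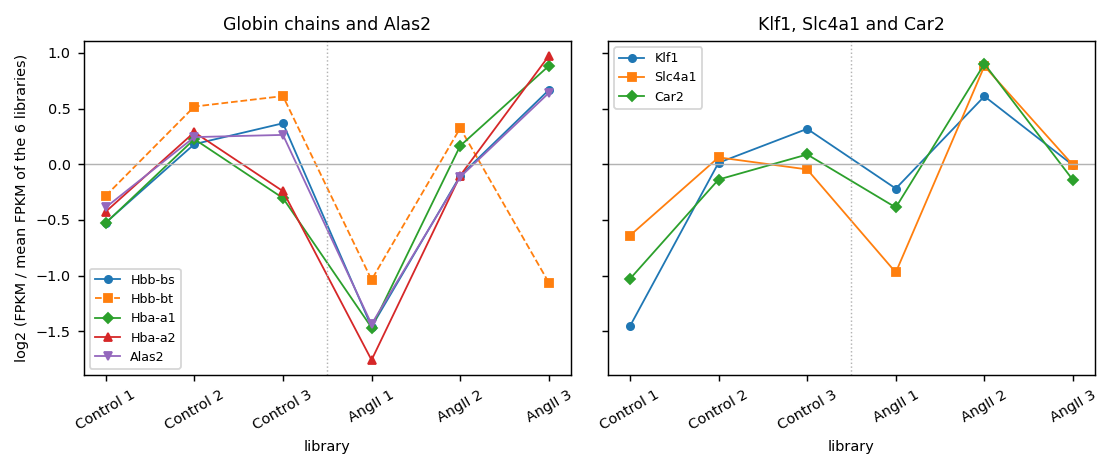
Log2 of each gene's FPKM over its own mean of the 6 libraries (vertical axis, 0 is the mean), by library (horizontal axis); lines only join the points of 1 gene, and the libraries have no order within a group. Hbb-bs, Hba-a1, Hba-a2 and Alas2 peak in AngII replicate 3, Hbb-bt (dashed) does not, and Klf1, Slc4a1 and Car2 peak in AngII replicate 2.

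Klf1, Slc4a1 and Car2 had their highest level in another library than Hbb-bs, Hba-a1, Hba-a2 and Alas2. Slc4a1 shared its lowest library, AngII replicate 1, with those genes, whereas Klf1 and Car2 were lowest in Control replicate 1. Klf1 was at 1.17, 3.22 and 3.98 FPKM in Control and at 2.75, 4.88 and 3.18 FPKM in AngII. Slc4a1 was at 1.13, 1.84 and 1.71 FPKM in Control and at 0.899, 3.24 and 1.75 FPKM in AngII. Car2 was at 10.2, 18.9 and 22.1 FPKM in Control and at 15.9, 38.9 and 18.9 FPKM in AngII. AngII replicate 2 was the highest library for all 3, while AngII replicate 3, the highest for Hbb-bs, Hba-a1, Hba-a2 and Alas2, lay within the Control range for each. Among all genes tested, 21.9% were highest in AngII replicate 2 and 18.6% in AngII replicate 3.

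Set against Hbb-bs, these 3 genes had their highest ratios in AngII replicates 1 and 2. In AngII replicate 1, Hbb-bs itself was at its lowest (85.9 FPKM). Klf1 and Car2 lay within the Control range in that library, and Slc4a1 was at its lowest there. Per 100 FPKM of Hbb-bs, Klf1 was at 0.710, 1.21 and 1.31 FPKM in Control and 3.20, 2.22 and 0.848 in AngII. On the same scale, Car2 had 6.21, 7.07 and 7.26 among Control mice, with 18.5, 17.7 and 5.03 among AngII mice. Slc4a1 had 0.689, 0.687 and 0.560 among Control mice, with 1.05, 1.48 and 0.468 among AngII mice. For Car2 and Slc4a1, AngII replicate 3 was lower than each Control library, and AngII replicates 1 and 2 were higher than each. Pearson's r of log2(FPKM + 1) was 0.937 between Klf1 and Car2, 0.883 between Slc4a1 and Car2 and 0.731 between Klf1 and Slc4a1, against 0.385, 0.340 and 0.570 of Klf1, Car2 and Slc4a1 with Hbb-bs. With the other globin genes, r of Slc4a1 was 0.657 (Hba-a1), 0.548 (Hba-a2) and 0.545 (Hbb-bt). Differences between these coefficients were not tested.

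**Figure D3:**
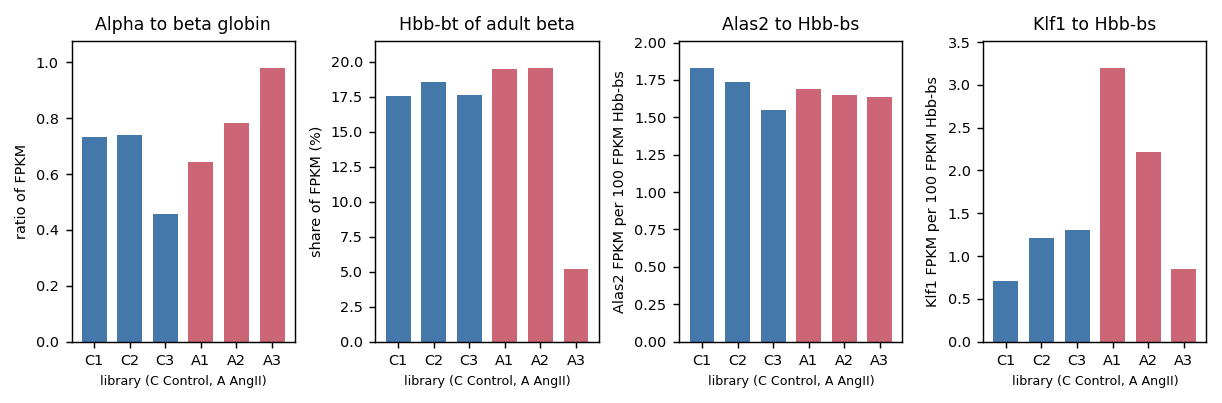
Quantities within each library that do not depend on its scaling (vertical axes, from 0): alpha to beta globin ratio, Hbb-bt share of beta globin, and Alas2 and Klf1 per 100 FPKM of Hbb-bs; 1 bar per library, C for Control and A for AngII. Alas2 per Hbb-bs is nearly level (1.55 to 1.83), Hbb-bt drops to 5.17% in AngII replicate 3, and Klf1 per Hbb-bs ranges from 0.710 to 3.20.

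None of the 8 genes passed the threshold between AngII and Control. In a limma fit of log2(FPKM + 1) over the 11842 genes whose mean reached 1 FPKM, 0 of the 8 had an adjusted p below 0.05, and 0 had an unadjusted p below 0.05. Over all genes tested, 0.0338% passed the adjusted threshold and 1.76% had an unadjusted p below 0.05. The groups overlapped for all 8, as they did for most genes. Over all genes tested, 5.84% did not overlap (2.36% higher and 3.48% lower in AngII), so overlap is not particular to the members. Values were higher in AngII for 4 members and lower for 4, with a median log2 fold change of -0.05, against -0.004 over all genes.

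Estimates were wide. Hbb-bt had the largest, -0.85 (SE 0.429, 95% interval -1.90 to 0.20, limma adjusted p = 0.9999), followed by Car2 at 0.46 (SE 0.407, -0.54 to 1.45, limma adjusted p = 0.9999) and Klf1 at 0.34 (-0.51 to 1.19). Hbb-bs was at -0.30 (-1.65 to 1.04), Alas2 at -0.23 (-1.19 to 0.74), Hba-a2 at -0.16 (-1.77 to 1.45), Slc4a1 at 0.15 (-0.61 to 0.90) and Hba-a1 at 0.07 (-1.38 to 1.51), all with a limma adjusted p of 0.9999. The median half-width of these intervals was 1.02 on the log2 scale, against 0.263 over all genes tested. These intervals are not adjusted for the number of genes tested. The adjusted threshold therefore asks for a larger estimate than this half-width. The spread within groups placed every member between the 93.0th and the 96.7th percentile of all genes tested. Without AngII replicate 1 the estimates for Hbb-bs, Hba-a2 and Alas2 turned to 0.27, 0.56 and 0.18, and without AngII replicate 3 that for Hba-a1 turned to -0.44. Hba-a1 also turned to -0.10 without Control replicate 1 and to -0.08 without AngII replicate 2. Hba-a2 turned to 0.05 without Control replicate 2, Klf1 to -0.02 without Control replicate 1 and Slc4a1 to -0.15 without AngII replicate 2.

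**Figure D4:**
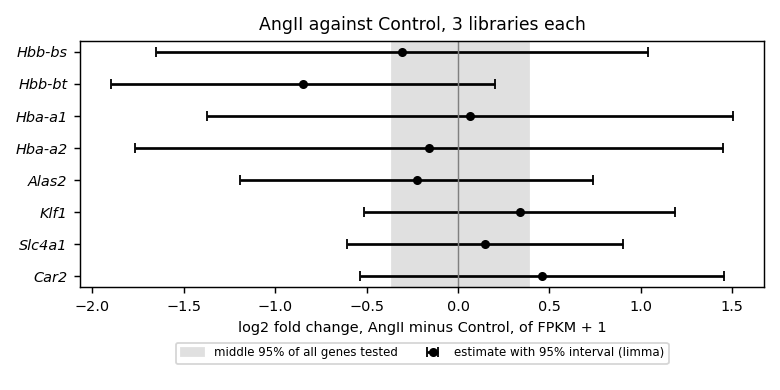
Log2 fold change of FPKM + 1, AngII minus Control (horizontal axis), for each erythroid gene; points are limma estimates and bars their 95% intervals (3 libraries per group). Every interval includes 0, and the grey band holds the middle 95% of all 11842 genes (-0.36 to 0.39).

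The authors' deposited table, whose conditions are named only by number, gives another call for 1 gene. In the authors' deposited table, Hbb-bt has p = 5e-05 and q = 0.0216 and is marked significant, as are 0.251% of the 14720 genes tested there. In the authors' deposited table Car2 has p = 0.0008 and q = 0.226 and is not significant. The other 6 have p between 0.07535 (Hba-a1) and 0.6164 (Alas2) in the authors' deposited table, each with q = 0.999918. No direction was taken from this table. In the library files, leaving out AngII replicate 3 moved the log2 fold change of Hbb-bt from -0.85 to -0.62, and leaving out AngII replicate 2 moved it to -1.29.

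The rest of the red cell programme was measured through 5 further lists: other globins, heme synthesis, red cell membrane, erythroid factors, and late red cell and reticulocyte genes. Of 71 genes measured in them, 51 reached the filter and 0 passed the limma threshold in either direction. At an unadjusted p below 0.05 there was 1, Slc25a38 (limma adjusted p = 0.9999). Values were higher in AngII for 36 and lower for 15, with a median log2 fold change of 0.04. AngII replicate 2 was the highest library for 28 of the 51 (54.9%), against 21.9% of all genes tested.

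Embryonic and theta globins were at or near 0. Hba-x and Hbb-bh2 were listed at 0 in every library, a value that may also stand for a failed estimate, and Hbq1b, a theta globin, lay between 0.0891 and 0.400 FPKM. Among 12 heme synthesis genes, 8 had higher and 4 lower values in AngII, with log2 fold changes from -0.17 to 0.14 and none past the threshold. Tmem14c, a mitochondrial carrier of heme precursors, was the most abundant, with a mean of 73.0 ± 6.19 FPKM over Control mice and 73.0 ± 12.4 FPKM over AngII mice (SD, n = 3 each). Urod, an enzyme in the middle of the pathway, was at 25.8 ± 1.23 and 26.3 ± 1.49, and Slc25a38, the glycine importer of mitochondria, at 17.9 ± 0.964 and 15.8 ± 0.628 FPKM. Unlike Alas2, these enzymes and carriers are used by many cell types, and 9 of the 12 were highest in AngII replicate 2.

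Among red cell membrane genes, 8 of 19 reached the filter, 7 with higher and 1 with lower values in AngII (median log2 fold change 0.17, none past the threshold). Aqp1, the water channel, was at 2.79, 5.39 and 6.11 FPKM in Control and 4.97, 6.76 and 5.97 FPKM in AngII. AngII replicate 2 was the highest library for Aqp1, and for 13 of the 19 genes of the list, most of them below the filter. Of all 4012 genes with a mean of 0.1 to 1 FPKM, 28.2% were highest in that library. Epb41 (52.99 to 63.4 FPKM) and Gypc (15.6 to 17.0 FPKM), which T cells also express, varied little.

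Of 14 erythroid factors, all were tested and 0 passed, with 11 higher and 3 lower values in AngII (median log2 fold change 0.15). Gata1, the master factor of red cells and megakaryocytes, was at 4.89, 5.49 and 6.96 FPKM in Control and 6.63, 7.33 and 6.18 FPKM in AngII. Ldb1 (108 to 129 FPKM) and Zfpm1 (35.8 to 43.3 FPKM) were far more abundant, and both are also expressed outside the red cell lineage. Of 17 late red cell genes tested, 10 had higher and 7 lower values, and 0 passed. Car1, the carbonic anhydrase of red cells in the same gene cluster as Car2, was at 18.6, 44.8 and 49.7 FPKM in Control and 34.8, 59.4 and 43.0 FPKM in AngII, with Control replicate 1 lowest and AngII replicate 2 highest, as for Car2. Of 13 other carbonic anhydrase genes, Car1 and Car13 reached the filter, and neither passed.

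**Figure D5:**
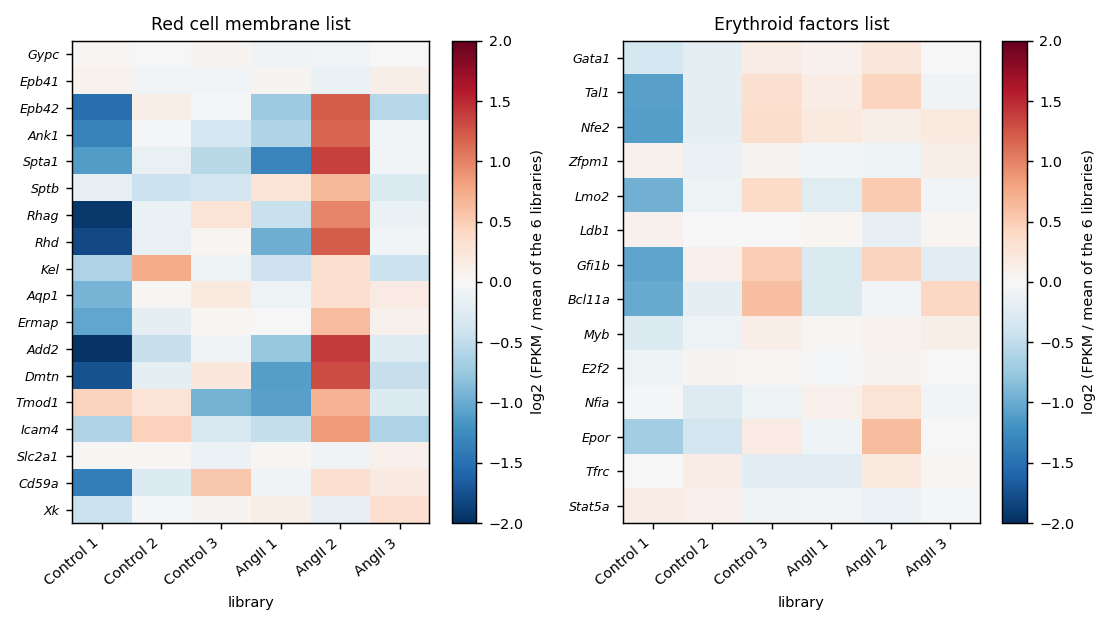
Log2 of FPKM over the gene's own mean of the 6 libraries (colour, -2 to 2) for red cell membrane genes (1 of the list is not shown) and 14 erythroid factors, by library. The column of AngII replicate 2 is the highest for 6 of the factors and for most of the membrane genes, and that of Control replicate 1 is the lowest for 9 of the factors.

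Likeness of pattern was measured as Pearson's r of log2(FPKM + 1) over the 6 libraries, among 382 genes outside the member list that spanned at least 1 on this scale. For Klf1, the 5 most alike genes were Car1 (r = 0.994), Ifitm1 (0.990), Lrmda (0.984), Lmo2 (0.984) and Gstm5 (0.984). For Car2 the 5 included Hemgn (0.991), Slc40a1 (0.980) and Hmox1 (0.980), and 19.4% of the 382 genes had an r above 0.9 with it. Slc40a1, the iron exporter, and Hmox1, the heme-degrading enzyme, are genes of red pulp macrophages. For Hbb-bs they were Immp2l (0.921), Scimp (0.894), Kmo (0.826), Cd79a (0.824) and Rnase6 (0.819), and for Alas2 Immp2l (0.912), Scimp (0.859), Cd79a (0.808), Zfp972 (0.802) and Fcrla (0.791). Cd79a and Fcrla are B cell genes. These coefficients describe 6 libraries, and no test was made.

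Markers of other spleen cells also differed between libraries. The summed level of 12 red pulp macrophage markers was 1213, 1686 and 2044 FPKM in Control and 1567, 2999 and 1516 FPKM in AngII. AngII replicate 2 was highest for 10 of the 12, as for Klf1, Slc4a1 and Car2, and Control replicate 1 was lowest for 11. AngII replicate 2 was also highest for 10 of 10 stromal and endothelial markers, of which 2 reached the filter. Among all genes tested, 21.9% were highest in AngII replicate 2 and 18.4% were lowest in Control replicate 1. Of genes with a mean of 0.1 to 1 FPKM, 28.2% were highest in AngII replicate 2. Summed granulocyte markers (12 genes) ranged from 11.2 to 57.9 FPKM in Control and 32.1 to 99.7 in AngII, and platelet and megakaryocyte markers (12 genes) from 123 to 324 and 207 to 279. Summed B cell markers (10 genes) ranged from 660 to 1165 and 588 to 951 FPKM. Ighm made up most of each sum, at 620, 689 and 1042 FPKM in Control and 550, 908 and 704 FPKM in AngII. Every other B cell marker was higher in Control replicate 3 and AngII replicate 3 than in the remaining libraries. Progenitor markers (10 genes) ranged from 22.4 to 26.9 and 22.9 to 26.1 FPKM. Ikzf2 was the most abundant, at 15.0, 11.7 and 12.8 FPKM in Control and 11.7, 12.3 and 12.5 FPKM in AngII. It was highest in Control replicate 1, which was lowest for 7 of the 10 progenitor markers. NK and CD8 markers (10 genes) ranged from 156 to 232 and 144 to 189 FPKM, stromal and endothelial markers (10 genes) from 62.0 to 66.2 and 65.2 to 74.1, and T cell markers (10 genes) from 2770 to 3232 and 2826 to 3117. Values were higher in AngII for 10 of 10 granulocyte and 12 of 12 platelet markers tested, and lower for 10 of 10 B cell and 9 of 9 NK and CD8 markers. Markers of a list often shared their highest library, so these counts are not independent observations. Control replicate 3 was highest for 9 of 12 platelet, 9 of 10 B cell and 6 of 10 NK and CD8 markers. For granulocyte markers the highest was AngII replicate 3 (7 of 12) or AngII replicate 2 (5 of 12). No marker in these lists was at 0 in all libraries, and none passed the limma threshold or had an unadjusted p below 0.05. The part of these cells in the levels of the erythroid genes was not tested.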

How the data were processed

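RNA-seq was done on splenic CD4+ T cells of 3 Control and 3 AngII mice. The authors deposited 1 table of FPKM per library. Per the submitters' processing notes, Trimmomatic 0.32, TopHat2 2.1.1, Cuffdiff and the build GRCm38.p3 were used; for the annotation release and the handling of reads shared by several genes, the answer is not given in the sources used here. Per the file headers, the authors' deposited table of the series gives a p-value and a q-value per gene; its 2 condition columns were left out, since they are named by number.

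Members were matched by the gene name in the files, and positions are those of GENCODE M21. FPKM was tested as log2(FPKM + 1), which understates changes of low genes, for genes whose mean reached 1 FPKM, with limma 3.58.1 in R 4.3.3 (eBayes with trend, two-sided, Benjamini-Hochberg over all genes, threshold 0.05). The same code was tested on simulated data. Ratios were compared by exact permutation. Alternatives were pseudocounts of 0.1 and 5, other filters, scalings and variance models, weights per library, a block for the replicate number, and leaving out each library. Named list genes are among the 4 of highest mean in their list or the 5 of most alike pattern; Gata1, Cd4, Cd3e, Hbq1b and the genes listed at 0 were chosen with their values known. Results of some genes are not reported here. Members and lists were chosen with earlier results of these data known. Other steps ran in Python 3.11.15 (scipy 1.17.1, numpy 2.4.6, pandas 2.3.3).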

Additional observations from a re-analysis of the deposited data

How the results depend on the processing

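No setting brought a member past the threshold, and the limma adjusted p of the members over all settings lay between 0.275 (Hbb-bt, library weights) and 1. Library weights turned Hba-a1 to -0.17 and Slc4a1 to -0.16, and moved Hbb-bt to -1.33, Hba-a2 to -0.32, Klf1 to 0.08, Car2 to 0.07 and the members' median from -0.05 to -0.22. A pseudocount of 5 moved Alas2 to -0.09, Klf1 to 0.15, Slc4a1 to 0.07 and the median to -0.0093; the median was -0.16 at a mean of at least 5 FPKM and -0.03 after quantile normalization. With 1 library left out, and no weights, log2 fold changes ranged from -0.78 to 0.27 for Hbb-bs, -1.29 to -0.62 for Hbb-bt, -0.44 to 0.72 for Hba-a1, -0.78 to 0.56 for Hba-a2, -0.59 to 0.18 for Alas2, -0.0237 to 0.58 for Klf1, -0.15 to 0.43 for Slc4a1 and 0.08 to 0.70 for Car2, and the members' median from -0.51 to 0.45. The direction thus held in each of these for Hbb-bt and Car2 only. The difference in Hbb-bt share ranged from -5.60 to 1.58 percentage points and that in the log2 alpha to beta ratio from 0.10 to 0.48. The count of all genes past the threshold was 4, 7 without the filter, and 4 to 9 with 1 library left out; the cause was not tested. With the replicate number as a block it was 3, and no member's call changed. Same-numbered libraries did not deviate together (r of -0.0802, -0.0229 and -0.0352), which cannot show whether the mice were paired by number. At a mean of at least 5 FPKM, Alas2, Klf1 and Slc4a1 could not be fitted. The number of reads behind low genes such as Slc4a1 is unknown and limits their precision.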
